A study of Mus musculus with 10 samples.

Results

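Pdk4, Txnip, Ucp2 and Ucp3 are genes linked to which fuel a cell burns, and Dnajb13 is the neighbour that overlaps the accessible stretch past the end of Ucp2. Their accessible regions were examined in atrial cardiomyocyte nuclei of mice homozygous for the Prrx1(R1A) allele. The regions were selected on position and on the authors' own test: they are the entries of the authors' deposited list of differential regions whose 500 bp bin has one of the 5 genes as its nearest protein-coding gene. Of 5327 listed regions, 13 met this rule: 4 at Pdk4, 2 at Txnip, 2 at Ucp2, 4 at Ucp3 and 1 at Dnajb13. Because every entry of the list was called in the comparison of Prrx1(R1A)-/- with control, the differences below are descriptions of that comparison and no test of them is given.

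ATAC-seq, in which a transposase cuts open DNA and marks it for sequencing, was done on PCM1-stained and sorted nuclei, with the left and right atria of an animal pooled. The Prrx1(R1A)-/- group had 4 animals with 1 library each, and the control group had 4 animals with 6 libraries, since controls 1 and 3 were each represented by a pair. All animals were 8 to 12 weeks old, and the labels name no strain, no treatment and no further allele. The series concerns a noncoding region that regulates Prrx1, a homeobox factor gene. The labels call the control genotype only control and do not describe the R1A allele further, so its extent and the cells in which it acts are not known here. In sorted nuclei pooled from an animal, more open nuclei and more openness per nucleus cannot be told apart.

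As background, PDK4 is a mitochondrial kinase that phosphorylates and shuts off the pyruvate dehydrogenase complex, which keeps pyruvate out of oxidation while fatty acids are burned. Its gene is known to be induced by fasting, by PPAR receptors and by glucocorticoids in heart and skeletal muscle. TXNIP is an alpha-arrestin that binds thioredoxin and lowers glucose uptake by removing glucose transporters from the surface, and its gene is a classic target of the glucose sensors of the Mondo family. UCP2 and UCP3 are carriers of the inner mitochondrial membrane, UCP3 mainly in muscle and brown fat and UCP2 in many cell types, immune cells included. DNAJB13 is a J-domain protein of the axoneme of cilia and sperm flagella.

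The promoter sequences of the 4 metabolic genes are shown because the listed regions lie differently on them. Each is the 250 bases before the RefSeq start on build GRCm38.p6 (the coordinates of mm10), written 5′ to 3′ on the gene's strand, and capitals mark matches to the motifs named after them. The Txnip window was taken in whole by a listed region (chr3:96557707-96557956, plus strand), as were those of Ucp2 (chr7:100493108-100493357, plus strand) and Ucp3 (chr7:100472741-100472990, plus strand). The Pdk4 window (chr6:5496279-5496528, minus strand) held no listed base and lay in a gap, 223 and 529 bases from the regions on either side.
Txnip: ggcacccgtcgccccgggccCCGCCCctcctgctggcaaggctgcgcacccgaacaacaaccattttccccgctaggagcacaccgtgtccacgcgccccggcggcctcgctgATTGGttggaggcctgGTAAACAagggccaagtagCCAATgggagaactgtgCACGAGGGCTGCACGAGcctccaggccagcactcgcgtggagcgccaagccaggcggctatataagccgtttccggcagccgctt
Pdk4: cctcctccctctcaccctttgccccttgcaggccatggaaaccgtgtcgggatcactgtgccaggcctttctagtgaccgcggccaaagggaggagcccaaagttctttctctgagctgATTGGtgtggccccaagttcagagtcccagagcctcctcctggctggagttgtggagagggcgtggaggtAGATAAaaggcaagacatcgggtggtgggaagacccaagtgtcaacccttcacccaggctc
Ucp2: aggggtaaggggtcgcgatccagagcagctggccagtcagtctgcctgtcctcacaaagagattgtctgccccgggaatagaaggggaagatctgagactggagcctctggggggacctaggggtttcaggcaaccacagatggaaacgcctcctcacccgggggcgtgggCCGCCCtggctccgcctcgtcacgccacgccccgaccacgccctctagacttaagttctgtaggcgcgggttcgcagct
Ucp3: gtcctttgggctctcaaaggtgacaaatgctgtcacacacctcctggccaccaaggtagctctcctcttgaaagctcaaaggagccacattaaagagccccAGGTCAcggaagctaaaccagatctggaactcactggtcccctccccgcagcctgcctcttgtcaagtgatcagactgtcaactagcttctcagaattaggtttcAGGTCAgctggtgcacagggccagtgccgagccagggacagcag

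Txnip held the motif of carbohydrate response elements, the sites read by Mondo-family factors, 85 to 69 bases before its start. This motif, CACGNGNNNNNCNCGNG, was added to the search after the sequences had been seen, and 0.423% of 17492 protein-coding promoter windows (1 per gene) held it. Txnip also had the forkhead motif TGTTTAC on the opposite strand at 121 to 115 bases before the start, present in 2.58% of windows. CCAAT occurred in Txnip on both strands and in Pdk4 (36.3% of windows), and the GC box GGGCGG in Txnip and Ucp2 (42.7%). Pdk4 had the GATA motif AGATAA at 61 to 56 bases before the start (9.12% of windows). Ucp3 had 2 copies of the nuclear receptor half-site AGGTCA (12.6% of windows), at 149 to 144 and 44 to 39 bases before the start. The Dnajb13 window, where no region was listed, had AGGTCA and the steroid receptor half-site AGAACA (13.9%). The E-box CACGTG (6.64% of windows), the TATA motif TATAAA (12.4%), the homeodomain motif TAATTA (4.45%) and the TEAD motif CATTCC (11.6%) were in none of the 5. Both strands were searched, no match overlapped another, and a match of letters does not show that a factor binds. Only the exact letters given were searched, so related forms, such as tatataag in the Txnip window, were not counted.

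All 13 regions had more reads in Prrx1(R1A)-/- than in control atria. Over the whole list 66.7% of entries were higher in Prrx1(R1A)-/-, and since entry to the list rested on the same contrast nothing is read from the count. In the authors' deposited table their log2 changes ran from 0.76 to 2.56, with a median of 1.03, against 0.81 over all higher entries. Adjusted p-values in the authors' deposited table were 2.43e-21 for the strongest Pdk4 region and at most 0.0266 over the 13, where the list ends at 0.04999. Levels below are scaled reads of the 500 bp bin per animal, that is, reads divided by a depth factor whose group difference was taken from the authors' own fold changes. At the strongest region of each gene the deposited log2 change was smaller than the log2 ratio of mean scaled reads. It was 2.56 against 3.63 at Pdk4, 1.23 against 1.88 at Ucp3 and 1.20 against 1.41 at Ucp2. Ranks and medians of log2 change use the deposited values. All 4 Prrx1(R1A)-/- animals lay above all 4 controls at 10 of 13 regions, where the same held for 60.4% of all entries and for 90.6% of the entries that were higher. The 3 regions with overlap were the one upstream of Txnip, the one at the end of Ucp2 and the one just inside Ucp3. On edgeR's TMM scale the median log2 ratio of all entries was 0.64 lower, and 7 of 13 regions kept the groups apart, where 17.2% of the higher entries did.

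**Figure D1:**
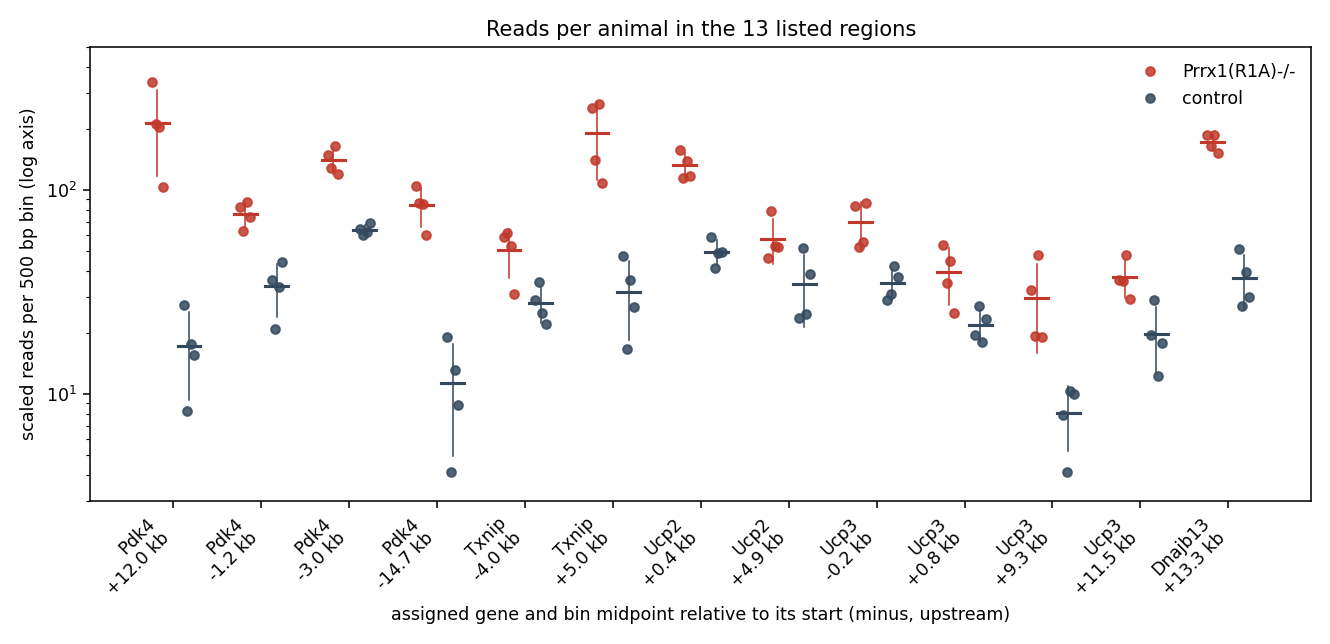
Scaled reads per 500 bp bin (log axis) in each animal at the 13 regions, with Prrx1(R1A)-/- left of control; points are animals, horizontal bars group means and vertical bars 1 SD (n = 4 each). The widest separations were at the Pdk4 bins 12.0 kb downstream and 14.7 kb upstream of the start, where all Prrx1(R1A)-/- animals exceeded all controls.

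Pdk4, the pyruvate dehydrogenase kinase, carried the strongest change. Its main region (chromosome 6, 5479751 to 5495750) was 16000 bp wide, stopped 528 bases short of the start and ran to 3.6 kb past the gene end, and was the widest of all 5327 entries. The bin that represents it lay inside the gene, 12.0 kb from the start and 0.9 kb before the end. It had 337, 210, 203 and 103 scaled reads in Prrx1(R1A)-/- animals 1 to 4, against 27.4, 8.28, 17.6 and 15.5 in control animals 1 to 4. Animal 1 was the highest of its group and animal 4 the lowest, yet animal 4 still had 3.75 times the reads of the highest control. The means of 213 ± 96.2 scaled reads in Prrx1(R1A)-/- and 17.2 ± 7.89 in control (SD, n = 4 each) gave a 12.4-fold ratio. In the authors' deposited table its log2 change of 2.56 was the highest increase, and the second largest change in either direction.

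Upstream of Pdk4 the changes did not follow the distance from the start. The region farthest away (chromosome 6, 5507501 to 5511500), with its bin 14.7 kb upstream, had 104, 86.5, 85.7 and 60.1 scaled reads in Prrx1(R1A)-/- animals 1 to 4, against 19.0, 4.14, 13.1 and 8.85 in control animals 1 to 4. Here too the groups were apart, with the lowest Prrx1(R1A)-/- animal at 3.16 times the highest control. The means of 84.1 ± 18.1 in Prrx1(R1A)-/- and 11.3 ± 6.34 in control (SD, n = 4 each) gave a 7.45-fold ratio, and the log2 change in the authors' deposited table, 2.06, ranked 4 among increases. The 4.14 of control animal 2 rests on 2 reads, so that value is imprecise.

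The 2 regions nearer to the Pdk4 start had higher levels in controls and smaller ratios. At 1.2 kb upstream the means were 76.5 ± 10.8 scaled reads in Prrx1(R1A)-/- and 33.7 ± 9.79 in control (SD, n = 4 each), 2.27-fold. At 3.0 kb upstream they were 140 ± 20 in Prrx1(R1A)-/- and 63.7 ± 3.7 in control, 2.20-fold, the highest control level of the 13 regions. Neither pair of groups overlapped. In Prrx1(R1A)-/- atria the gene-end bin, at 213, had the highest mean of the 4 Pdk4 bins, and in control atria the bin 3.0 kb upstream had it, at 63.7.

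Txnip, the arrestin that restrains glucose uptake, was spanned in whole by a region of 10500 bp (chromosome 3, 96554501 to 96565000), the third widest entry of the list. It began 3.5 kb before the start and ended 3.1 kb past the gene, and its bin began 0.9 kb beyond the gene end. The bin had 253, 140, 264 and 108 scaled reads in Prrx1(R1A)-/- animals 1 to 4, against 47.4, 16.6, 36.1 and 26.6 in control animals 1 to 4. Prrx1(R1A)-/- animals 1 and 3 were high and animals 2 and 4 lower, with no overlap with controls. The means of 191 ± 78.8 in Prrx1(R1A)-/- and 31.6 ± 13.2 in control (SD, n = 4 each) gave a 6.05-fold ratio. In the authors' deposited table the log2 change was 1.85, rank 11 among increases.

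The second Txnip region, 500 bp wide with its bin 4.0 kb before the start, had the smallest change of the 13 in the authors' deposited table, 0.76 log2. It averaged 50.9 ± 13.8 scaled reads in Prrx1(R1A)-/- and 27.8 ± 5.63 in control (SD, n = 4 each). Prrx1(R1A)-/- animal 4, at 30.8, lay below the highest control at 35.2. The other listed regions within 250 kb of Txnip, 3 in all, were assigned to Polr3gl and were no members. They lay 9.4 to 18.4 kb from Txnip and were higher by 0.96 to 1.65 log2 in the authors' deposited table.

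Ucp3, Ucp2 and Dnajb13 lie side by side on chromosome 7, and their 7 regions fell within 33.0 kb. Ucp3 and Ucp2 run in one direction and Dnajb13 faces them, so that the ends of Ucp2 and Dnajb13 meet across 3381 bases. The strongest region of the cluster spanned this meeting point (chromosome 7, 100499251 to 100505500), covering the last 379 bases of Ucp2, the stretch between and the last 2490 bases of Dnajb13. Its bin was nearer to Dnajb13 (1.3 kb) than to Ucp2 (1.6 kb), which is why the rule gives it to the axoneme gene; nearness does not show on which gene a region acts.

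That bin had 185, 165, 187 and 152 scaled reads in Prrx1(R1A)-/- animals 1 to 4, against 51.5, 26.9, 39.8 and 29.9 in control animals 1 to 4. The Prrx1(R1A)-/- animals were close together, and the lowest had 2.96 times the reads of the highest control. Means were 172 ± 16.6 in Prrx1(R1A)-/- and 37.0 ± 11.1 in control (SD, n = 4 each), 4.66-fold, and the log2 change of 1.81 in the authors' deposited table ranked 12 among increases.

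Ucp2, the widely expressed carrier, had a region over its start (chromosome 7, 100492751 to 100494500) with the bin 0.4 kb inside the gene. It had 157, 115, 139 and 117 scaled reads in Prrx1(R1A)-/- animals 1 to 4, against 58.5, 41.4, 49.2 and 49.8 in control animals 1 to 4. No animal of one group reached the other, and the ratio of means was 2.66 (132 ± 19.8 in Prrx1(R1A)-/- and 49.7 ± 7.0 in control, SD, n = 4 each). The second region, 4.9 kb inside the gene and 1.4 kb before its end, differed less, with 57.7 ± 14.3 in Prrx1(R1A)-/- and 34.7 ± 13.3 in control, and overlapped: control animal 2 had 51.7 and Prrx1(R1A)-/- animal 1 had 46.2. Along Ucp2 the ratio of means was therefore 2.66 at the start, 1.66 before the end and 4.66 just past the end.

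Ucp3, the muscle carrier, had 4 narrow regions, of 500 or 750 bp. The one with the largest change (chromosome 7, 100482001 to 100482500), 9.3 kb inside the gene, had 32.4, 19.2, 48.2 and 19.1 scaled reads in Prrx1(R1A)-/- animals 1 to 4, against 7.89, 4.14, 10.3 and 9.96 in control animals 1 to 4. The groups were apart, but levels were the lowest of the 13 regions, with 135 raw reads over the Prrx1(R1A)-/- and 53 over the control libraries. Means were 29.7 ± 13.8 in Prrx1(R1A)-/- and 8.06 ± 2.82 in control (SD, n = 4 each), 3.69-fold. The region on the promoter, with its bin 0.2 kb before the start, averaged 69.5 ± 17.9 in Prrx1(R1A)-/- and 34.9 ± 6.15 in control, 1.99-fold and without overlap. The other two, 0.8 and 11.5 kb inside the gene, had ratios of 1.81 and 1.91; the first overlapped between groups, and in the second the lowest Prrx1(R1A)-/- animal was 1.01 times the highest control. Within 250 kb of these genes 6 listed regions belonged to other genes. The 4 assigned to C2cd3, 4.2 to 42.7 kb from Ucp3, were higher by 0.89 to 1.44 log2 in the authors' deposited table. The one at Mrpl48 was higher (0.73), and the one at Plekhb1, 159.9 kb from Dnajb13, was lower (-0.78, both from the authors' deposited table).

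**Figure D2:**
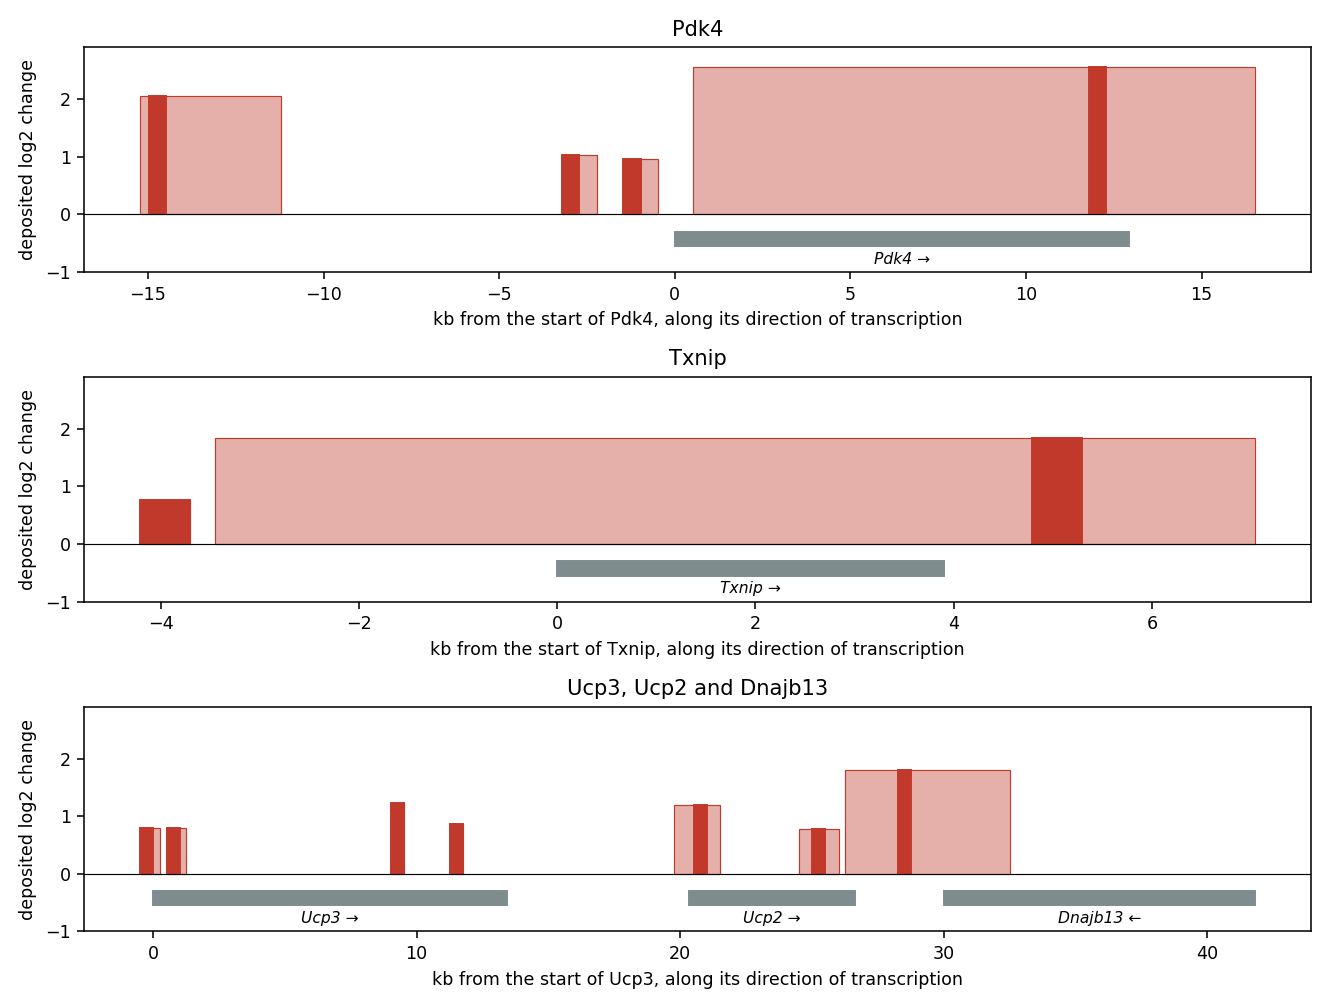
Listed regions (pale boxes) and their 500 bp bins (dark boxes) along the 3 loci, with distance in kb from the start of Pdk4, Txnip or Ucp3 along its direction of transcription; box height is the deposited log2 change, Prrx1(R1A)-/- over control, of the bin, and grey bars are gene bodies with arrows for direction. The tallest box of each panel, 2.56 at Pdk4, 1.85 at Txnip and 1.81 past Ucp2, reaches past the end of a gene.

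The strongest regions at Pdk4, at Txnip and between Ucp2 and Dnajb13 extended over or past a gene end. The midpoints of their bins lay 0.9 kb before the end of Pdk4, 1.1 kb past the end of Txnip and 1.9 kb past the end of Ucp2. Since the rule takes bins by nearness to a gene body, these positions are given as a description. Some other wide entries lay near gene ends too. Of the 8 other regions of at least 6 kb, 5 had a nearest gene with a strand in RefSeq. Among those 5, 3 had their bin within 2 kb of its end, where 5.18% of 4134 listed bins did. Of all 11 regions of at least 6 kb, 5 were higher in Prrx1(R1A)-/-, with the Pdk4, Txnip and Dnajb13 regions among them. Both limits were chosen after the positions had been seen. The Pdk4, Txnip and Dnajb13 regions were, of the 3551 higher entries, the widest, the second widest and the third widest, where the median entry had 750 bp. Listed regions covered 95.9% of the Pdk4 body and 100% of the Txnip body, but 48.4% of Ucp2, 21.1% of Dnajb13 and 15.0% of Ucp3. Only 1 bin of each region has counts in the table, so the course of the signal inside a wide region is not known.

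**Figure D3:**
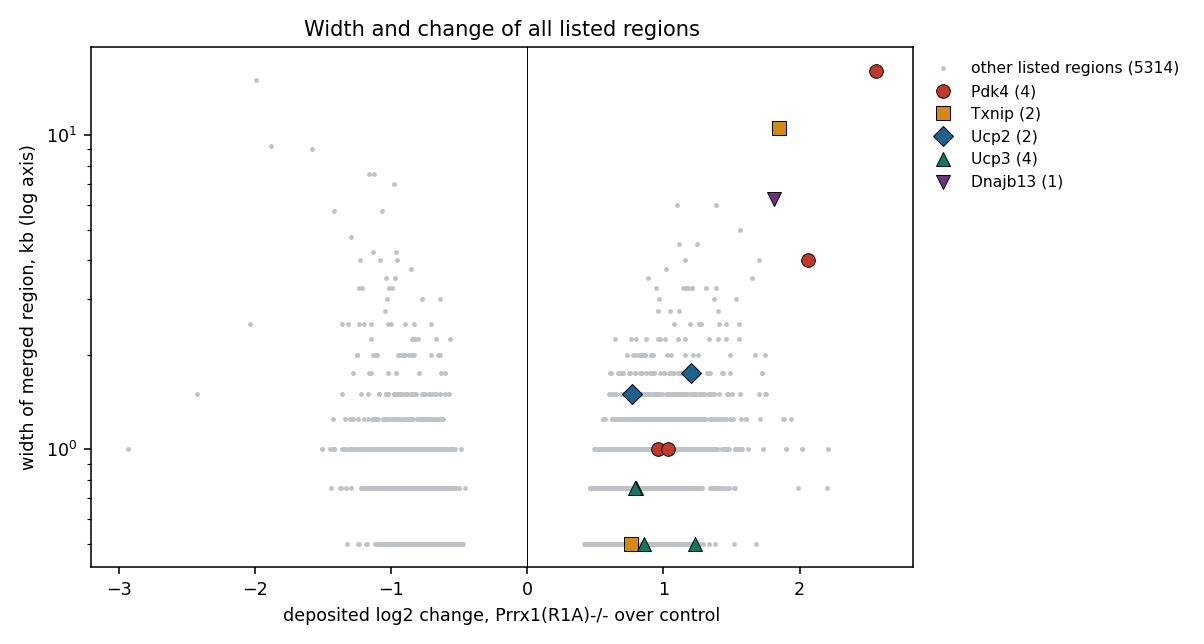
Width of the merged region in kb (log axis) against the deposited log2 change, Prrx1(R1A)-/- over control, for the 13 regions (coloured symbols) and the 5314 others (grey points); the 2 Ucp3 regions of 750 bp coincide. The Pdk4, Txnip and Dnajb13 regions at 2.56, 1.85 and 1.81 log2 are the 3 widest on the higher side, while the Ucp3 regions lie among the narrow entries.

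The animals did not contribute alike. Prrx1(R1A)-/- animal 4 was the lowest of its group at 9 of 13 regions, whereas it was lowest at 27.5% of the 3551 higher entries, and animal 3 was the highest at 6 and the lowest at none, against 25.4% and 26.5% of the higher entries. Among controls, animal 2 was the lowest at 8 of 13 regions, against 36.5% of the higher entries. It was also the highest control at 4 of 13, against 23.9% of the higher entries. Those 4 include every region where the groups overlapped. These 2 animals also had the fewest reads of their group in listed bins, 272223 for Prrx1(R1A)-/- animal 4 and 151976 for control animal 2, and the part of depth in their levels was not tested. Relative to the control mean of each region, the median over the 13 was 2.46, 2.27, 2.59 and 2.36 in Prrx1(R1A)-/- animals 1 to 4, and 1.04, 0.832, 0.998 and 1.00 in control animals 1 to 4. Without Prrx1(R1A)-/- animal 4 the groups were apart at 12 regions, where 93.0% of the higher entries were, and without control animal 2 at 13, where 95.0% were. Reads in listed bins ranged from 272223 to 521778 in Prrx1(R1A)-/- libraries and from 151976 to 384750 in control libraries, which is not the sequencing depth.

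The paired libraries of controls 1 and 3 show the spread within an animal. At the Pdk4 gene-end bin the libraries of control animal 1 had 23.7 and 30.4 scaled reads and those of control animal 3 had 17.3 and 18, while the 4 control animals spread from 8.28 to 27.4. At the Txnip bin the pairs were 44.4 and 49.8, and 32.2 and 40.3. These pairs show library spread alone and not the variation between animals.

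By the Pearson correlation of log2(scaled reads + 1) over the 8 animals, the genes with bins most like each strongest bin were, for Pdk4, Fbxo34 (0.996), Mr1 (0.993), Fgf1 and Synm (0.991 each) and Pacsin2 (0.990). For Txnip they were Cd83 (0.986), Wwp2 (0.983), Phactr1, Mr1 and Gpam (0.981 each), and for Dnajb13 Phactr1 (0.993), Nfic (0.992), Smarcb1 (0.991), Mr1 and Arhgef7 (0.989 each). For Ucp2 they were Garre1 (0.996), Klf7 (0.995), Evpl (0.992), Lnpep (0.989) and Hhatl (0.988), and for Ucp3 Elmod3 and Jak1 (0.983 each), Agpat2 (0.977), Got1 (0.974) and Adamtsl4 (0.971). With group means removed, the r of these genes ran from 0.76 (Arhgef7 with Dnajb13) to 0.96 (Fbxo34 with Pdk4). Mr1 stood in 3 of the 5 sets. The 2 groups form separate clusters, all entries were picked for the group difference, and these are the highest of many comparisons, so the values order likeness and test nothing.

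The rest of the pathway was read from 6 gene lists. For the counts that follow, 14.4% of 21900 protein-coding genes had a listed region, and 66.7% of all entries were higher in Prrx1(R1A)-/-; entry to the list rested on this contrast, so nothing is read from the list counts. Of 14 genes of pyruvate dehydrogenase control, 5 had listed regions, all 10 of them higher, with a median log2 change of 1.00 in the authors' deposited table; without Pdk4 there were 6 at a median of 0.78. Among well-covered bins, those with a mean count at or above the median entry, Pdp1, a phosphatase that reactivates the complex, and Pdpr, which regulates that phosphatase, were higher by 0.63 and 0.55 in the authors' deposited table. Of 13 thioredoxin and alpha-arrestin genes, 6 had regions, 13 higher and 1 lower, and without Txnip 11 were higher and 1 lower. After Txnip the highest among these genes was its relative Arrdc2, at 1.45 in the authors' deposited table. Arrdc2 had 122 ± 27.8 scaled reads in Prrx1(R1A)-/- and 34.9 ± 10.6 in control (SD, n = 4 each). Among well-covered bins the lowest were Arrdc3 at 0.92 and Arrdc5 at 0.99. Arrdc3 went both ways, with 2 higher regions and 1 lower.

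Of 9 uncoupling proteins and mitochondrial carriers, 5 had regions, 8 higher and 2 lower. Without Ucp2 and Ucp3 there were 4 regions, 2 higher and 2 lower, at a median of 0.07 in the authors' deposited table. Ucp1, the brown fat protein, had none. Besides Ucp2 and Ucp3, the carnitine carrier gene Slc25a20 was higher (0.70 log2 in the authors' deposited table). Slc25a30 was higher too (1.15), in a less covered bin 17.0 kb from the gene. Slc25a4, the ADP/ATP carrier of heart and muscle, was lower at both its regions. At the stronger, Slc25a4 had 66.6 ± 6.31 scaled reads in Prrx1(R1A)-/- and 121 ± 13.3 in control (SD, n = 4 each).

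The difference in direction between the fatty acid and glucose lists was not tested. Of 22 genes under PPAR and fatty acid oxidation, 15 had regions, and all 41 were higher, with a median of 0.80 in the authors' deposited table. Among well-covered bins the highest were Angptl4, an inhibitor of lipoprotein lipase (1.56), and Cpt2, of the carnitine shuttle (1.5), and the lowest Acaa2 (0.66) and Plin5 (0.74). Of 27 glucose uptake and glycolysis genes, 5 had regions, 2 higher and 6 lower, with a median of -0.69. By gene, 2 were only higher and 3 only lower. In less covered bins Pfkfb4 (1.10) and Slc2a1 (0.73) were higher and Ldha (-0.91) lower in the authors' deposited table. Hk2, which encodes the insulin-regulated hexokinase of muscle, had 4 regions, all lower, the strongest at 32.2 ± 8.26 scaled reads in Prrx1(R1A)-/- and 65.8 ± 6.2 in control (SD, n = 4 each). Pfkl, a phosphofructokinase subunit, was lower at 1 region (-0.56 log2 in the authors' deposited table).

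Regulators of fuel choice were mixed, and the names below are again from well-covered bins unless stated otherwise. There were 12 higher and 8 lower regions at 12 of 23 genes. Ppargc1a, the mitochondrial coactivator, had 1 higher region (1.13 log2 in the authors' deposited table) and 4 lower, and Pparg, a lipid-sensing receptor, was higher at 2 (strongest 0.80). Insr, the insulin receptor gene, was lower (-0.70) and Ppargc1b higher (0.54). In less covered bins Nr3c1, the glucocorticoid receptor gene (-1.18), Nr4a1 (-0.9) and Irs2 (-0.85) were lower in the authors' deposited table. Irs1 (0.99), Rxra (0.85) and Foxo1 (0.76) were higher there. The bins at Nr3c1, Irs2 and Irs1 lay 116.6, 101.2 and 367.9 kb from the gene. Over all 5327 entries the median log2 change was 0.70 in the authors' deposited table.

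**Figure D4:**
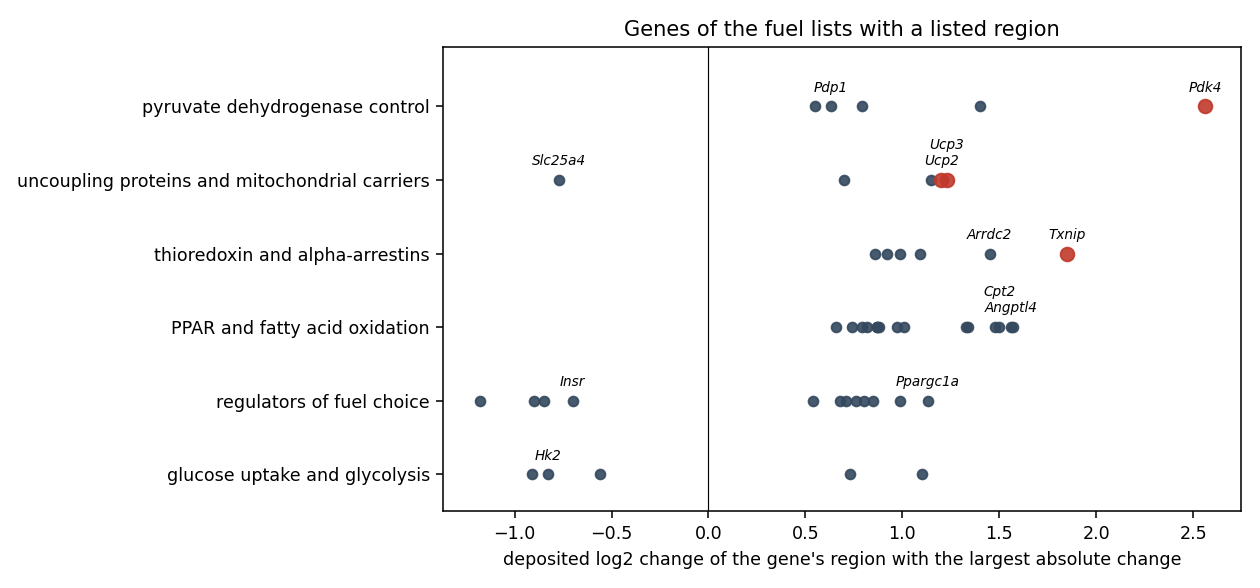
Deposited log2 change, Prrx1(R1A)-/- over control, at the most changed region of each gene with a listed region, by gene list; red points are Pdk4, Ucp2, Ucp3 and Txnip, dark points the other genes of the list. Pdk4 (2.56) and Txnip (1.85) have the highest values of all lists, every gene of the PPAR list lies right of 0, and Hk2 (-0.83) and Slc25a4 (-0.77) lie left of it. The glucose list has genes on both sides of 0.

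Markers of other cells were counted beside these results, since Ucp2 is also an immune cell gene and Ucp3 a gene of skeletal muscle and brown fat. Over the whole list, 14.4% of protein-coding genes had a listed region and 66.7% of entries were higher. Entry to the list rested on the group contrast, so nothing is read from the marker counts or sums. Of 10 immune markers, Csf1r and Runx1 had listed regions, 3 in all and all higher, whose scaled reads summed to 205 to 232 in Prrx1(R1A)-/- and 86.5 to 132 in control animals, while Ptprc, Cd68, Adgre1 and the others had none. Of 8 skeletal muscle fibre markers only Ckm had regions, 3 and all lower, with sums of 104 to 146 in Prrx1(R1A)-/- and 203 to 226 in control animals. Of 8 adipocyte markers 5 had regions, 4 higher and 2 lower, with sums of 378 to 426 in Prrx1(R1A)-/- and 268 to 328 in control animals. The lower ones were at Adipoq and Fabp4 and the higher ones at Pparg, Cidea and Lep, so these sums pool both directions. The cardiomyocyte, endothelial and smooth muscle sums below do so too. Of 10 cardiomyocyte markers 7 had regions, 22 higher and 34 lower, with sums of 3450 to 3910 in Prrx1(R1A)-/- and 3630 to 4660 in control animals, and Myh6, Tnnt2 and Myl7 had none. Of 8 fibroblast markers Dpt and Fbln1 had 1 higher region each, with sums of 185 to 243 in Prrx1(R1A)-/- and 91.0 to 120 in control animals, and Col1a1, Dcn and Pdgfra had none. Of 8 endothelial markers 4 had regions, 1 higher and 3 lower, with sums of 126 to 146 in Prrx1(R1A)-/- and 153 to 189 in control animals. Of 8 smooth muscle and pericyte markers 4 had regions, 5 higher and 2 lower, with sums of 456 to 521 in Prrx1(R1A)-/- and 367 to 430 in control animals. Some marker bins lay far from their gene, such as 227.9 kb at Cdh5, 55.8 kb at Kdr and 31.5 kb at Dpt. A marker without a listed region may still be open in both groups, so the sorted cell type could not be checked fully from this table, and the part of other cells in the results was not tested.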

How the data were processed

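Per the submitters' processing notes, BWA, bedtools and DESeq2 were used on mouse build mm10; their versions and roles, duplicate handling and any shift for the transposase are not stated there. Reads were paired, 150 bp, per the labels' protocols. The authors' deposited table lists 5327 called regions, each with 1 bin of 500 bp. The deposited counts per library are handled as estimated counts, because 0.1 stands in 17 cells where no cell holds 0; these were rounded to 0. The log2 fold changes the authors deposited put control on top, and their sign was turned here. The deposited p-values are adjusted, and the deposited group signal is a geometric mean of counts, matched here to 7.8e-10.

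Pairs of libraries from controls 1 and 3 were summed. Within groups, depth factors were median ratios. Between groups, a line was fitted to deposited log2 changes against log2 ratios of the group means, over 1432 bins with both means at or above 50 (slope 0.874, offset 0.142). The step was tested on simulated data whose fold changes had no noise and the same shrinkage in every bin. That test therefore checks the code and does not show that the scale is right for these data. Total reads are unknown, so counts limit precision. Bins were assigned to the nearest of 21900 protein-coding RefSeq genes (GRCm38.p6), ties going to the nearer gene end; all 5 genes and all list symbols matched. Alternatives used edgeR 4.0.16 under R 4.3.3 for TMM factors; tables were made with Python 3.11.15, pandas 2.3.3 and numpy 2.4.6.

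Members and lists were chosen with earlier results of these data known. Values per animal are given for the region with the largest deposited change at each gene and for member regions in the top 5% of entries. For likeness, the 5 genes with the highest correlation to each such lead bin were taken, from bins as covered as those of the lists. From each list the 2 highest and 2 lowest genes were named, using each gene's most changed region where its bin had a mean count at or above the median. For the glucose, carrier and regulator lists the genes below that count are named as well.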

Additional observations from a re-analysis of the deposited data

How the results depend on the processing

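The direction held at all 13 regions under TMM, median-of-ratios and total-read scales, with 1 library per control and without any 1 animal. Entry to the list rested on the same contrast, so nothing is read from this. Over all entries the share higher was 61.3% with TMM factors, 63.5% with median-of-ratios factors and 66.7% in the other settings. The assignment gave 13 regions in each alternative except the authors' adjusted p under 0.01, which left 9. The scale moved the size. With TMM factors the log2 ratio at the strongest region was 1.96 for Txnip, 0.77 for Ucp2, 1.24 for Ucp3 and 1.58 for Dnajb13. As reported these were 2.60, 1.41, 1.88 and 2.22, and Pdk4 moved from 3.63 to 2.99. The move was of like size at all 5, so Pdk4 depended on the scale no less than the others. At Pdk4 it lay within the spread between animals, which was the widest of the 5. With median-of-ratios size factors Ucp2 and Dnajb13 were at 0.82 and 1.63, and with total reads in listed bins at 1.02 and 1.82. TMM and median ratios assume that most entries do not differ, which a table of called regions does not meet. Leaving out 1 animal at a time gave log2 ratios of 3.32 to 3.95 for Pdk4, 2.38 to 2.86 for Txnip, 1.32 to 1.5 for Ucp2, 1.55 to 2.05 for Ucp3 and 2.09 to 2.42 for Dnajb13, and 10 to 13 regions without overlap, where 91.0% to 95.0% of the higher entries had none. No paired analysis was possible because the results come from no test and the animal numbers of the 2 groups name different animals. Control animal 2, with the fewest reads, limits the low-count bins.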
